A study of Homo sapiens with 16 samples.

Results

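The cyclic AMP phosphodiesterase 4 (PDE4) family comprises PDE4A, PDE4B, PDE4C and PDE4D, which are 4 of the 60676 genes in a table of read counts from HCT116, a human colorectal carcinoma cell line. Members were taken by gene symbol. The family was chosen by the measured level of PDE4B, which was much lower in cells given HMBA, so every HMBA value of the 4 members is given as a description, with no test. Effects of the shRNA and of EPZ-5676 were not used in that choice and were tested. The ways in which these combine with HMBA were also tested. For PDE4B, however, those tests draw on the same HMBA values that chose the family.

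Messenger RNA was sequenced in 16 libraries of 8 groups, with 2 libraries in each. All cells carried a short hairpin RNA, either the control shCTL or shNELFE, which targets the RNA-binding subunit of the negative elongation factor that holds RNA polymerase II paused near promoters. Each of these was given DMSO, EPZ-5676, HMBA, or EPZ-5676 together with HMBA. EPZ-5676 (pinometostat) inhibits DOT1L, the methyltransferase of lysine in the histone H3 core, and HMBA (hexamethylene bisacetamide) is known to free the elongation kinase P-TEFb and to raise HEXIM1. Doses, treatment times and hairpin sequences are not in the labels. Nor do the labels say that the paired libraries are from different cultures, so the spread between them could be purely technical. In the main fit below, only shNELFE with both compounds had 2 libraries. Its p-values are therefore set mostly against departures of single libraries from the fitted terms, and little against a spread between replicates.

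PDE4 enzymes break down cyclic AMP, the second messenger that adenylyl cyclases make when a Gs-coupled receptor is engaged, and so set how long protein kinase A, EPAC proteins and the transcription factor CREB stay active. Each gene has several promoters that give long forms, which protein kinase A can switch on by phosphorylation of an upstream conserved region, and short forms that lack that region. PDE4B is best known from immune cells, where blocking it lowers the release of inflammatory cytokines, and PDE4D from brain, heart and airway muscle. Roflumilast and apremilast, which are used in inflammatory disease of the airway, skin and joints, inhibit the family.

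The libraries did not all behave as their labels say. Total counts were 13428893 to 17867037 in 9 libraries, which are the 8 numbered 2 and shNELFE with both compounds numbered 1, and 19626522 to 21319666 in the other 7, all numbered 1. Pearson's r of log2 CPM (counts scaled to library totals) across 15853 genes, which are not independent replicates, was 0.920 to 0.990 among the 9 and 0.678 to 0.781 between the 9 and the 7. NELFE was 13.0 to 21.6 CPM in the 5 libraries labelled shNELFE among the 9, against 67.8 to 81.0 in the 4 labelled shCTL. In the 7, libraries labelled shNELFE held 81.8 to 144 CPM of NELFE, and HEXIM1 was 42.9 to 73.8 CPM whatever the label. Within the 9, HEXIM1 was 338 to 385 CPM with HMBA and 66.8 to 81.6 without. Results below rest on the 9, scaled among themselves by the trimmed mean of M values (TMM), and the values of the 7 stand beside them. The values of the 7, the correlations, the marker levels and the levels per kilobase use TMM scaling over all 16 libraries. In the 9, every epithelial marker on a list of 9 was detected. EPCAM was 604 CPM in shNELFE with both compounds numbered 1, against 310 in the library of that group numbered 2. Apart from the library at 604, it was 292 to 369 CPM. The colon markers CDX1, VIL1 and LGR5 were each at most 0.337 CPM, ASCL2 had 0 counts and CDX2 was 3.27 to 16.1 CPM.

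In the GENCODE 29 annotation of hg38, PDE4A (ENSG00000065989, chr19:10416773-10469631, plus strand) spans 52.9 kb. PDE4B (ENSG00000184588, chr1:65792514-66374579, plus strand) spans 582.1 kb and has 10 distinct starts of coding transcripts. PDE4D (ENSG00000113448, chr5:58969038-60522120, minus strand) is the longest, at 1553.1 kb with 15 such starts. PDE4C (ENSG00000105650, chr19:18208652-18248200, minus strand) shares 4625 of its 6546 exonic bases with AC008397.2 on the same strand, so its counts are uncertain. The counts are per gene and do not tell which promoter or which form, long or short, the reads came from.

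RefSeq (GRCh38.p14) lists 23 promoter windows for the family, each of 300 bases from 250 before to 50 after a start, with 5 for PDE4A, 6 for PDE4B, 4 for PDE4C and 8 for PDE4D. They are shown because the family's own second messenger acts on genes through CREB, which binds the cyclic AMP response element, TGACGTCA. That element was in 1 of the 23 windows, the most upstream one of PDE4A, where it began 3 bases before the start, and in 1.85% of all 35116 windows of the same length in the table. Its core, TGACG, which also lies in each strand of the full element, was matched 7 times on either strand in that PDE4A window. The core was found in 3 of the 23 windows, 1 each of PDE4A, PDE4C and PDE4D, against 24.6% of all windows. None of the 6 windows of PDE4B held it. In the sequences below, which are 5′ to 3′ on the gene's strand, capitals mark the full element and its core.
PDE4A, most upstream window, chr19:10416523-10416822, plus strand: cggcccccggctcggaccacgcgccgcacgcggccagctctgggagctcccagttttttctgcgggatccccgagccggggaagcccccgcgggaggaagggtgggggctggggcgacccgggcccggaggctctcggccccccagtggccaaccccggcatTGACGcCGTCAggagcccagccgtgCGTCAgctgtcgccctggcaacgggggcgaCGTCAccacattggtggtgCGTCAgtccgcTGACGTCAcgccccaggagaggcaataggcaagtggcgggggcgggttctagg
PDE4B, most upstream window, chr1:65792260-65792559, plus strand: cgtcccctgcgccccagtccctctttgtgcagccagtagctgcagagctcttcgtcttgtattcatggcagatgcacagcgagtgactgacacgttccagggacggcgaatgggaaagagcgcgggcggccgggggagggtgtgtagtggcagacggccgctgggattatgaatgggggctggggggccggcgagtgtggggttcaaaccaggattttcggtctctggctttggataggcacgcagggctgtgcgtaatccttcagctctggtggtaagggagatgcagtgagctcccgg
PDE4B, most downstream window, chr1:66354285-66354584, plus strand: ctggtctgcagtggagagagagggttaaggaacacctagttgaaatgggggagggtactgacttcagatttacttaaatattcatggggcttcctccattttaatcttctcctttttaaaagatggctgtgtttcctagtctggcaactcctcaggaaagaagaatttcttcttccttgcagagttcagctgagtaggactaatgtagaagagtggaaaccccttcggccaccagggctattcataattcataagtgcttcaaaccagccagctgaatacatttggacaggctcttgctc
PDE4D, the window with the core, chr5:59587576-59587875, minus strand: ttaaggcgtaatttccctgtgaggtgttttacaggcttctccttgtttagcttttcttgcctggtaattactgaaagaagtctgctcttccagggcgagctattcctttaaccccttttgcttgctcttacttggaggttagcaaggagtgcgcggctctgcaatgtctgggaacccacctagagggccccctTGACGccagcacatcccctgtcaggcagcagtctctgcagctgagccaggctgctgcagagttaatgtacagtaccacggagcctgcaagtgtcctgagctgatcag
The 2 PDE4B windows are the most upstream and the most downstream of its 6, and differ in base composition, with 61.7% and 44.3% G and C. The PDE4A window holds 73.0% G and C and the PDE4D window 52.3%, with its core 57 bases before the start. Of other short motifs searched on both strands, the GC box GGGCGG was in 8 of the 23 windows against 45.0% of all. The AP-1 sites TGACTCA and TGAGTCA were in 1 window, of PDE4D, against 4.95%. Neither the E-box CACGTG (7.26% of all windows) nor TATAAA (11.5%) was found. These matches describe the letters of the windows, and no binding was measured.

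PDE4B was the member with the widest range. Its level was 159 CPM in shCTL with DMSO, 224 in shNELFE with DMSO, 119 in shCTL with EPZ-5676 and 191 in shNELFE with EPZ-5676. With HMBA it was 5.76 CPM in shCTL, 4.50 in shNELFE, 3.72 in shCTL with EPZ-5676, and 2.84 and 3.55 in the 2 libraries of shNELFE with EPZ-5676. Every library with HMBA thus lay far below every library without it. The mean was 4.07 ± 1.12 CPM (SD, n = 5) with HMBA and 173 ± 44.9 (SD, n = 4) without, a log2 fold change of -5.37 (SE 0.17) in an edgeR fit with 1 additive term for each of the shRNA, EPZ-5676 and HMBA. Of the 14912 genes in that fit, 6 had a more negative HMBA value. Even the lowest of these levels rested on 41 reads, above the floor of 3 counts, which is 0.168 to 0.223 CPM in these 9 libraries.

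The lower level of PDE4B mRNA with HMBA was seen in each of the 4 pairs of libraries numbered 2 that differ in HMBA alone, and its size differed between them. The level without HMBA was 27.6 times that with it in shCTL (95% exact interval 22.0 to 35.0) and 32.0 times in shCTL with EPZ-5676 (24.6 to 42.3). In shNELFE it was 49.7 times (38.2 to 66.0), and in shNELFE with EPZ-5676 53.7 times (40.4 to 73.0). Intervals here and below cover counting error only. Both shNELFE ratios were above both shCTL ratios, though the intervals of shCTL with EPZ-5676 and of shNELFE overlap. Each ratio rests on 1 library a side. In an edgeR fit with a term for shRNA by HMBA, that term had an adjusted p of 0.879 for PDE4B.

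PDE4A, a widely expressed member, was also lower with HMBA but by far less. It stood at 34.6 CPM in shCTL with DMSO, 30.5 in shNELFE with DMSO, 45.6 in shCTL with EPZ-5676 and 39.8 in shNELFE with EPZ-5676. The HMBA libraries held 18.5 CPM in shCTL, 16.2 in shNELFE, 17.3 in shCTL with EPZ-5676, and 12.2 and 11.9 in shNELFE with EPZ-5676. The libraries with and without HMBA did not overlap. Means were 15.2 ± 3.0 CPM (SD, n = 5) with HMBA and 37.6 ± 6.55 (SD, n = 4) without, a log2 fold change of -1.28 (SE 0.14), and 1403 genes had a more negative one. CDC37, the kinase chaperone gene that overlaps the span of PDE4A on the other strand but shares none of its exonic bases, had an HMBA log2 fold change of 0.50 (SE 0.08), in the opposite direction.

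PDE4D was a low-abundance transcript here. Its counts were 17 in shCTL with DMSO, 6 in shNELFE with DMSO, 43 in shCTL with EPZ-5676 and 47 in shNELFE with EPZ-5676. With HMBA there were 3 counts in shCTL, 2 in shNELFE, 7 in shCTL with EPZ-5676, and 6 in each library of shNELFE with EPZ-5676. In CPM the HMBA libraries ran from 0.161 to 0.448 and the others from 0.343 to 2.91, so the groups overlapped through shNELFE with DMSO. The log2 fold change with HMBA was -2.45 (SE 0.35), from means of 0.338 ± 0.136 CPM (SD, n = 5) and 1.81 ± 1.29 (SD, n = 4), and 292 genes had a more negative one.

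PDE4C was close to the limit of detection. The 9 libraries held 0 to 10 reads of it, with 2, 10, 1 and 1 in the 4 without HMBA and 2, 3, 1, 4 and 0 in the 5 with it. It did not pass the filter on low counts, so no fold change or test was made for it. At 0 reads, in shNELFE with both compounds numbered 1, up to 0.168 CPM is allowed.

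The background to these descriptions was broad. At an adjusted p under 0.05, 63.0% of the 14912 genes were called for HMBA, 31.0% higher and 32.0% lower, and in 26.2% of genes every HMBA library lay below every other. PDE4A and PDE4B are among that 26.2%, and nothing about the family is read from this, since HMBA chose it. In libraries of whole cultures, fewer cells that hold a transcript and less of it per cell cannot be told apart. Mitochondrial genes took 8.87% to 12.2% of counts with HMBA and 6.12% to 6.90% without, and the part of this in the PDE4 values was not tested. PTPRC, the pan-leukocyte antigen of the cells best known for PDE4B, was at most 0.120 CPM in the 9, and the lymphocyte genes CD3E, CD3D and MS4A1 were at 0. Other leukocyte markers were detected, with CD68 at 9.22 to 29.3 CPM and ITGAM at 0.191 to 18.8 CPM. The 3 leukocyte markers tested were all called higher for HMBA, against 31.0% of all genes. Over the whole list of 12 leukocyte markers, the summed level was 10.1 to 20.8 CPM without HMBA, with 6 to 7 markers at 0, and 26.8 to 39.7 with it, with 4 to 7 at 0.

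**Figure D1:**
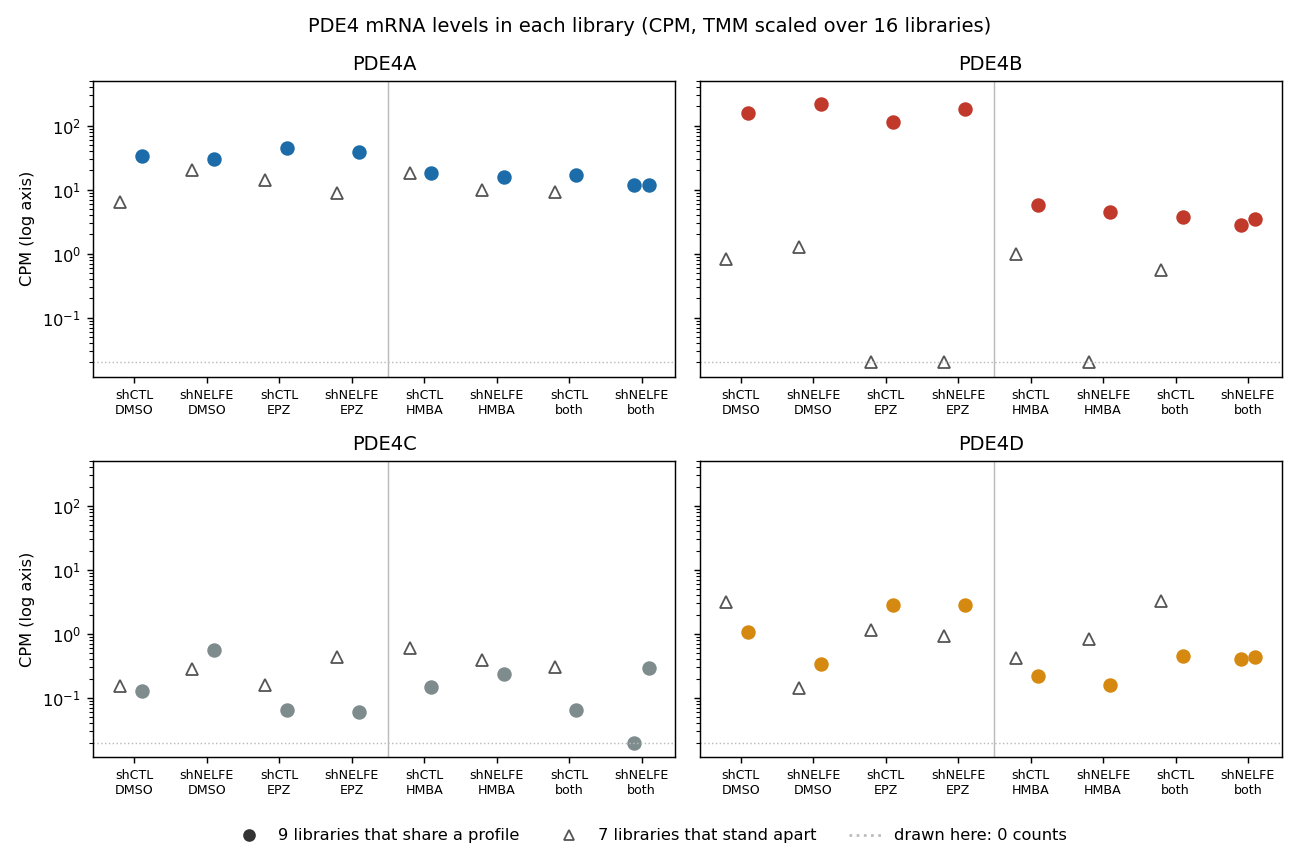
Levels of the 4 PDE4 genes in all 16 libraries, by group, as CPM on a log axis with totals scaled over the 16; filled circles are the 9 libraries that share a profile, open triangles the other 7, and the dotted line holds libraries with 0 counts. PDE4B circles lie above 100 CPM without HMBA and below 6 with it, while all PDE4B triangles lie at or below 1.29 CPM.

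The 7 other libraries carried little PDE4B whatever their label. By label, PDE4B counts were 16 for shCTL DMSO, 11 for shCTL with both compounds, 27 for shNELFE DMSO and 21 for shCTL HMBA. The libraries labelled shNELFE HMBA, shNELFE EPZ-5676 and shCTL EPZ-5676 held 0. The 7 fall into 3 profiles by their correlations, and the 3 at 0 form one of them. PDE4A was detected in all 7, at 6.42 to 20.1 CPM on totals scaled over 16 libraries. PDE4D was highest there, at 60 and 64 counts, in shCTL DMSO and shCTL with both compounds, which share a profile, and it was 17 to 22 in the profile without PDE4B and 3 and 9 in the remaining pair. The profiles were drawn from all genes of these same 7 libraries, so differences between them in the members are a description. For each of the 4 genes the levels with and without HMBA overlapped in the 7. With all 16 libraries in the fit and no block for the replicate number, the HMBA log2 fold changes were -4.93 for PDE4B, -0.82 for PDE4A and -1.003 for PDE4D, and edgeR called 0 genes of any kind for HMBA at an adjusted p under 0.05, with 1641 at an unadjusted p under 0.05.

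Because longer transcripts give more reads, levels were compared between members per kilobase of annotated exon. Without HMBA, PDE4B was the main PDE4 transcript in all 4 libraries, with 66.1% to 84.7% of the family's CPM per kilobase, and PDE4A made up 14.98% to 33.0%. With HMBA the order was the other way round in all 5 libraries, with PDE4A at 78.8% to 84.8% and PDE4B at 14.0% to 19.1%. PDE4D stayed between 0.0687% and 1.20% and PDE4C between 0 and 1.99% in the 9. The family as a whole went from 25.2 ± 4.41 CPM per kilobase (SD, n = 4) without HMBA to 2.78 ± 0.571 (SD, n = 5) with it. In the 7 other libraries PDE4A held 75.7% to 95.7% of the family and PDE4B at most 7.51%. Dividing by the longest coding transcript in place of all exons gave PDE4B 72.5% to 88.3% without HMBA and 18.1% to 24.4% with it, and left the order the same. These shares use the HMBA contrast and are a description.

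**Figure D2:**
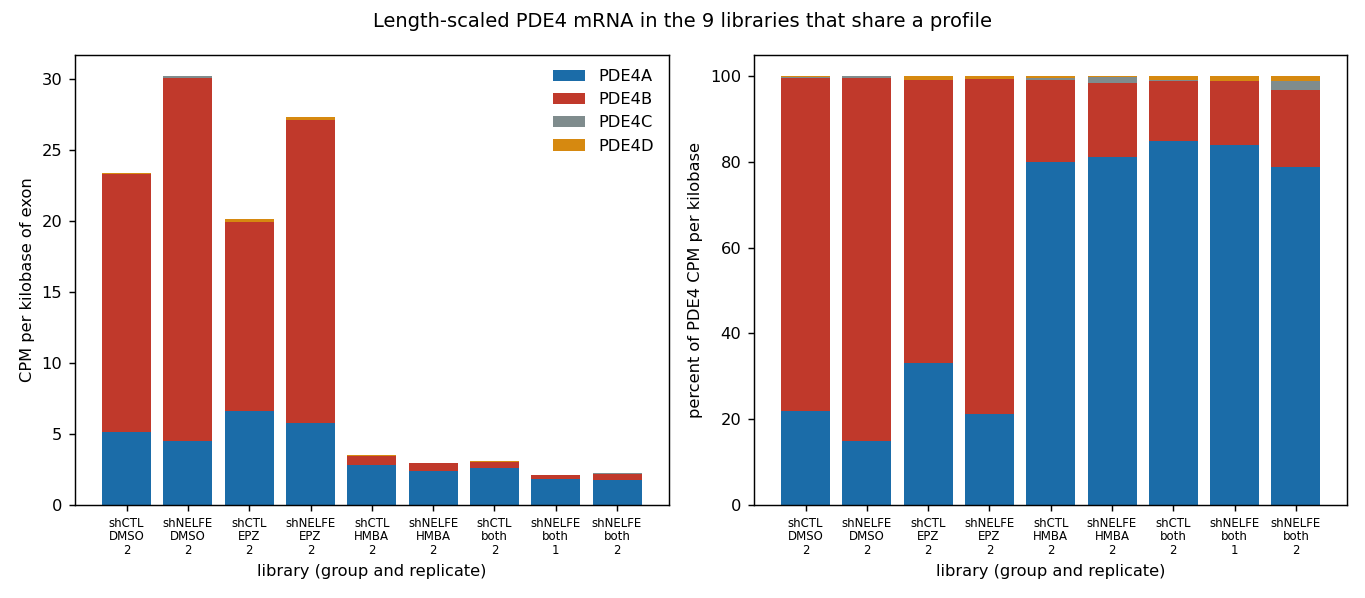
PDE4 mRNA per kilobase of exon in the 9 libraries, as stacked CPM per kilobase (left) and as percent of the family's sum (right), 1 bar a library with its group and replicate number. PDE4B is the largest part of each bar without HMBA (66.1% to 84.7%) and PDE4A of each bar with it (78.8% to 84.8%).

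EPZ-5676 addressed whether blocking DOT1L alters the family. None of the 3 tested members passed an adjusted p of 0.05 in the edgeR fit of 9 libraries, against 0.201% of all 14912 genes. PDE4D came nearest. In the pairs that differ in EPZ-5676 alone its level was 2.63 times higher in shCTL (43 against 17 counts, 95% exact interval 1.47 to 4.93) and 8.49 times in shNELFE (47 against 6, interval 3.62 to 24.3). With HMBA present the ratios were 2.02 (7 against 3 counts) and 2.76 (6 against 2), with intervals that include 1. PDE4D was thus higher with EPZ-5676 in 4 of 4 pairs, with a log2 fold change of 1.86 (SE 0.37) and an adjusted p of 0.0854 (unadjusted 0.000389). The call rests on the setting. It was made without shNELFE with both compounds numbered 1 (adjusted p 0.0136, where 3.80% of genes passed), with DESeq2 (0.0314) and with no filter on low counts (0.00422), and the adjusted p ran from 0.00422 to 1 over all alternatives.

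PDE4B was lower with EPZ-5676 in 4 of 4 pairs, at 0.747 and 0.851 times the level without it in cells with no HMBA, and at 0.645 and 0.788 times with HMBA. The log2 fold change was -0.44 (SE 0.17) with an adjusted p of 0.341 and an unadjusted p of 0.0228. PDE4A moved in both directions, at 1.32 and 1.31 times without HMBA and 0.933 and 0.737 times with it, and its additive log2 fold change was 0.04 (SE 0.14, adjusted p 0.947, 95% interval -0.27 to 0.35). By limma-voom no member passed either, and by DESeq2 PDE4D was the only one.

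Ratios between members within a library do not depend on how totals are scaled. Averaged over cells with and without HMBA, the mean log2 ratio of PDE4D to PDE4A was -4.36 with EPZ-5676 (n = 5) and -5.95 without (n = 4), a difference of 1.59, and that of PDE4D to PDE4B was higher by 2.08. Each had p = 0.0167 in a two-sided exact permutation test within HMBA strata, which is the smallest p that its 60 arrangements can give. Those arrangements move the 2 libraries of shNELFE with both compounds as separate units, though their spread could be purely technical. They also do not hold the shRNA fixed. The ratio tests were added after the data were seen, so no effect is concluded from them. Over the 6 ratios tested the Benjamini-Hochberg value of both was 0.05, at the threshold and not under it. PDE4B to PDE4A differed by -0.49 with EPZ-5676 (exact permutation p = 0.117). For shNELFE the ratios of PDE4B to PDE4A, PDE4D to PDE4A and PDE4D to PDE4B differed by 0.42, -0.089 and -0.51, with exact permutation p of 0.217, 0.933 and 0.7.

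**Figure D3:**
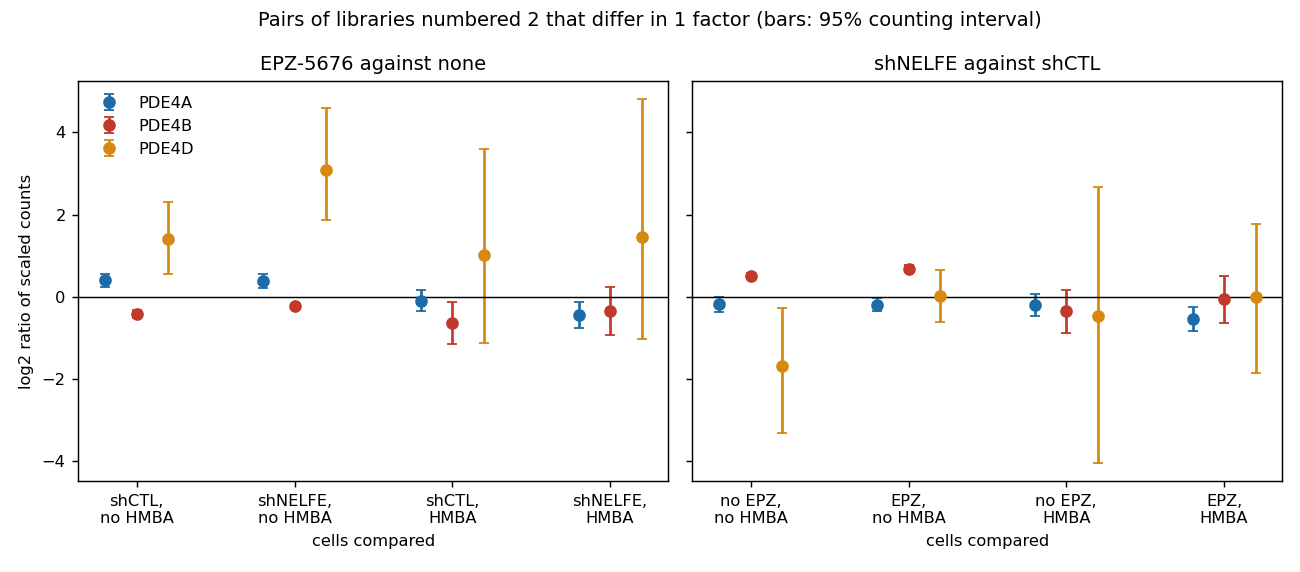
Log2 ratios of scaled counts for pairs of libraries numbered 2 that differ in EPZ-5676 alone (left) or in the shRNA alone (right), for PDE4A, PDE4B and PDE4D, with 95% exact counting intervals. PDE4D lies above 0 in all 4 EPZ-5676 pairs (1.02 to 3.09) and PDE4B lies above 0 for shNELFE in the 2 pairs without HMBA and below 0 in the 2 with it.

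Knockdown of NELFE asked whether loss of the pausing factor alters the family. None of the 3 members passed in the 9 libraries, against 2.37% of all genes, and none passed by DESeq2 or limma-voom. PDE4B was higher in shNELFE than in shCTL by 1.41 times (interval 1.34 to 1.48) with DMSO and by 1.61 times (1.51 to 1.70) with EPZ-5676. With HMBA the direction was the other way, at 0.781 times (0.544 to 1.12) and 0.955 times (0.638 to 1.43), with intervals that include 1. The additive log2 fold change was 0.26 (SE 0.17, adjusted p 0.414). Without shNELFE with both compounds numbered 1 it was 0.42 (SE 0.12) with an adjusted p of 0.0326, where 13.1% of genes passed, and the adjusted p over all alternatives ran from 0.0326 to 1.00.

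PDE4A was lower in shNELFE in 4 of 4 pairs, at 0.881, 0.872, 0.872 and 0.688 times the shCTL level. Its log2 fold change was -0.31 (SE 0.14), with an adjusted p of 0.255 and an unadjusted p of 0.0491. PDE4D was lower in 3 of 4 pairs, most clearly with DMSO (6 against 17 counts, ratio 0.314, interval 0.101 to 0.834), and its log2 fold change was -0.43 (SE 0.35, adjusted p 0.530). For PDE4D the interval of the log2 fold change ran from -1.19 to 0.34, so neither a 2-fold lower level nor an unaltered one could be set aside at this depth.

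**Figure D4:**
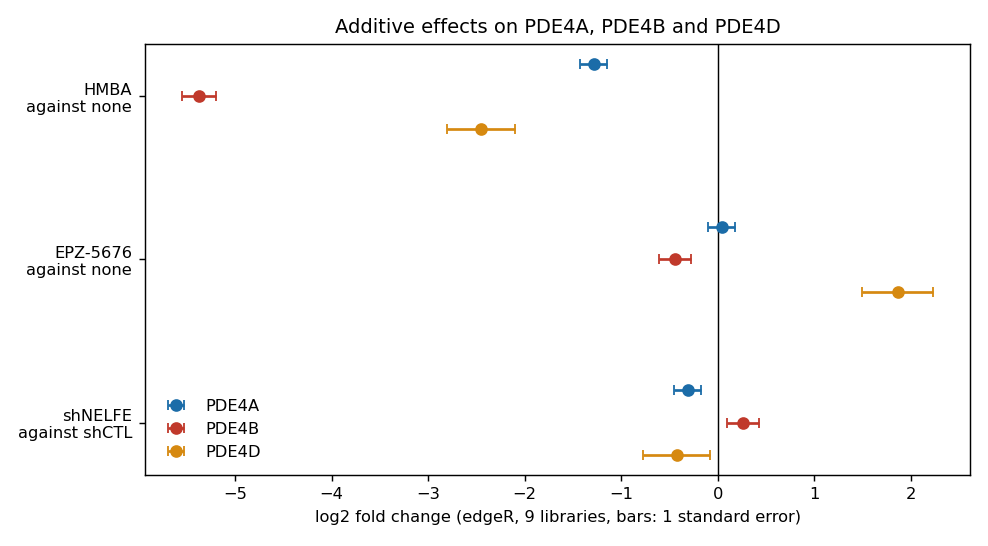
Log2 fold changes of PDE4A, PDE4B and PDE4D for HMBA, EPZ-5676 and shNELFE in the edgeR fit of 9 libraries with additive terms, with bars of 1 standard error. HMBA values (-1.28, -5.37 and -2.45) chose the family and are a description, and of the other 6 values the one farthest from 0 is PDE4D with EPZ-5676 (1.86, adjusted p 0.0854).

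Product terms asked whether 1 factor alters the response to another on the log2 scale. No member passed. For shRNA by HMBA, 0.0134% of genes passed (2 genes). For EPZ-5676 by HMBA and for shRNA by EPZ-5676, 0% passed by edgeR, with 385 and 114 genes at an unadjusted p under 0.05 and 1 and 3 genes called by DESeq2. PDE4B had a shRNA by HMBA value of -0.90 (SE 0.22, unadjusted p 0.00206, adjusted p 0.879). It is the difference between a shNELFE effect of 0.59 (SE 0.13, adjusted p 0.144) without HMBA and -0.31 (SE 0.17, adjusted p 0.385) with it. That product draws on the PDE4B levels with HMBA that chose the family, so nothing is read from its p-values. PDE4A had an EPZ-5676 by HMBA value of -0.68 (SE 0.20, unadjusted p 0.00716, adjusted p 1), from 0.39 (SE 0.14) without HMBA to -0.29 (SE 0.14) with it. PDE4D had its largest product for shRNA by EPZ-5676, at 1.33 (SE 0.69, adjusted p 1.00). The PDE4B and PDE4A products had an adjusted p of 0.193 and 0.189 in the 8 libraries numbered 2, the lowest of their alternatives.

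Genes with the pattern most like that of each member were found by the root mean square difference of log2 CPM, each less its own mean, over the 9 libraries and 10814 candidates. For PDE4B these were ZIC5 (a zinc finger transcription factor, 0.497), WNT16 (a Wnt ligand, 0.498), ITPRIPL1 (0.531), LIF (an interleukin-6 family cytokine, 0.569) and FJX1 (0.575). LIF averaged 145 CPM without HMBA and 6.53 with it, and WNT16 113 and 3.38. The root mean square difference grows with the range of a gene, so its size is not compared between members. For PDE4A the nearest were ZNF395 (0.129), EPB41L4B (0.130) and B4GALT2 (0.142). For PDE4D they were SEMA3A, a guidance ligand (0.470), TEX19 (0.495) and TNS4, a focal adhesion protein (0.508). All of these share the libraries and the HMBA contrast with the members, so the likeness is a description.

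The rest of the pathway was read from 10 lists of 147 genes, of which 107 were tested. For HMBA, 47 were higher and 35 lower at an adjusted p under 0.05, which is 76.6% against 63.0% of all genes. The median log2 fold change was 0.22 beside 0.02 for all genes. Over all genes 31.0% were higher and 32.0% lower, and the counts by list stand beside these shares. The lists were chosen with earlier results of these data known, so the counts are a description. Of 11 tested genes named as other phosphodiesterases, 5 were higher and 3 lower (median 0.30). These were listed by gene name, so not each need be an active enzyme. In either direction 5 rather than 8 passed without shNELFE EPZ-5676 numbered 2. PDE2A, a cyclic GMP-stimulated enzyme, rose by 1.12 (SE 0.16, adjusted p 0.000114) and PDE6D by 0.98 (SE 0.09). PDE7A, specific for cyclic AMP, rose by 0.67 (SE 0.11), and PDE10A fell by 2.73 (SE 0.26), all log2 values.

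Upstream of PDE4, ADORA2B, the low-affinity adenosine receptor that couples to Gs, fell from 57.1 ± 12.2 CPM (SD, n = 4) to 4.55 ± 1.76 (SD, n = 5), a log2 fold change of -3.68 (SE 0.15, adjusted p 1.69e-08). PTGER4, a prostaglandin E2 receptor, rose by 2.35. Of 9 tested Gs-coupled receptors 4 rose and 2 fell (median 0.31), beside 31.0% and 32.0% of all genes. DRD1, a dopamine receptor, was the other that fell, from 1.71 to 0.0299 CPM on average, below the level that the naming rule asks. Among adenylyl cyclases, the enzymes that make cyclic AMP, 2 of 4 fell and none rose, ADCY9 by 1.08 and ADCY7 by 0.39 (median -0.33). The G protein alpha subunits split 2 and 2 of 6 (median -0.01). GNAI1, which inhibits cyclase, fell by 2.28, GNAI2, of the same class, rose by 1.36, GNAZ fell by 0.89, and GNAS, which encodes Gs alpha, rose by 0.66. Of 7 prostaglandin synthesis genes 3 rose (median 0.42), all with a mean under 2 CPM and named because they are few: the cyclooxygenases PTGS1 and PTGS2, and HPGD, which breaks prostaglandins down. The number that passed in this list was 5 with RLE scaling and by DESeq2, 6 without shNELFE with both compounds numbered 1, which leaves the 8 libraries numbered 2, 5 without the library of that group numbered 2, and 2 without shNELFE EPZ-5676 numbered 2.

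Downstream of cyclic AMP, effectors were mixed, with 6 of 14 higher and 5 lower (median 0.15), beside 31.0% and 32.0% of all genes. PRKACB, a catalytic subunit of protein kinase A, fell by 1.46 with HMBA (SE 0.10) and also fell with EPZ-5676 by 1.13 (SE 0.10, adjusted p 0.00205). PRKACB was the only one of the 107 pathway genes to pass for EPZ-5676 in the fit of 9 libraries (0.935% against 0.201% of all genes). PKIA, the kinase's inhibitor, rose by 1.46. A-kinase anchoring proteins, which place the kinase and PDE4 in the cell, were lower in 8 of 14 and higher in 3 (median -0.86), led by AKAP12, which fell from 2214 to 604 CPM. In the CREB family and its coactivators 6 of 11 fell and 3 rose (median -0.55). The factor ATF1 fell by 1.71, CRTC3 by 1.49 and CREBBP by 1.40, while SIK1, a kinase that restrains the coactivators, rose by 1.20.

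All 17 tested CREB target genes passed for HMBA, 13 higher and 4 lower (median 1.36). Of all genes 63.0% passed, 31.0% higher and 32.0% lower. FOS, an immediate early transcription factor, rose from 8.37 ± 3.33 CPM (SD, n = 4) to 172 ± 68.4 (SD, n = 5), by 4.22 (SE 0.35, adjusted p 1.97e-06). EGR1 rose by 2.97 and FOSB by 2.68, and BDNF, a neurotrophin, fell by 2.67. These genes also respond to signals other than cyclic AMP, and cyclic AMP was not measured. Among proteins known to bind PDE4, 8 of 14 rose and 3 fell (median 0.34), and the tyrosine kinase FYN rose by 1.73 while SRC fell by 1.51. For shNELFE 3 of the 107 passed (2.80% against 2.37%), and MAPKAPK2 fell by 0.39 (adjusted p 0.0274). PDE10A rose by 1.32 and DRD1 by 1.93, both below 2 CPM on average and named because the count is small.

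**Figure D5:**
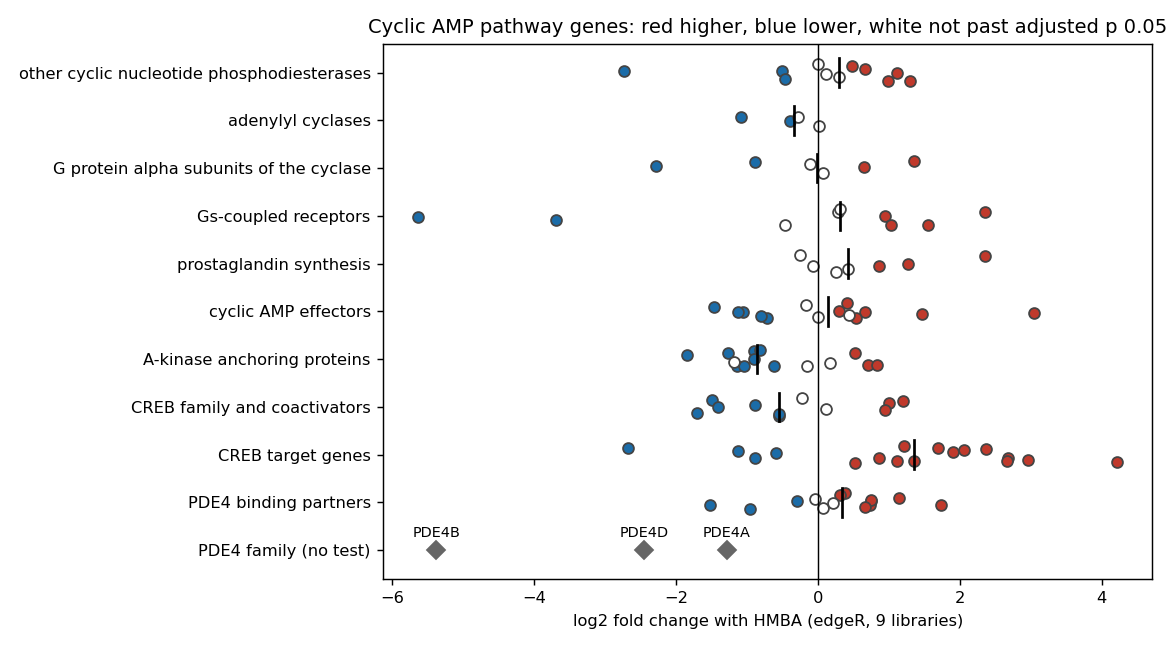
Log2 fold changes with HMBA in the edgeR fit of 9 libraries for each tested gene of 10 cyclic AMP pathway lists, with the list median as a black bar; red points passed higher, blue lower and white did not pass an adjusted p of 0.05. The 17 CREB target genes are all coloured, 13 of them red, where 63.0% of all genes passed. The 3 measured PDE4 genes (diamonds, no test) lie at -1.28 to -5.37.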

How the data were processed

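Counts of reads per gene for the 16 libraries were deposited by the authors as raw values and used as such. The kit was stranded TruSeq on oligo(dT)-selected mRNA, per the labels. The tools were HTSeq 0.6.1p1, STAR 2.4.0b, edgeR and Cufflinks 2.1.1 on hg38, per the submitters' processing notes. Strand setting and gene annotation are not given in the sources used. Of 60676 rows, 42009 matched a symbol. The PDE4 genes, the gene lists and the choice of 9 libraries were made with earlier results of these data known.

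edgeR 4.0.16 (R 4.3.3, limma 3.58.1) fitted shRNA, EPZ-5676 and HMBA as additive terms on 9 libraries by quasi-likelihood F-test, with TMM scaling, filterByExpr on that design (14912 genes, 5 residual degrees of freedom) and Benjamini-Hochberg adjustment over all genes at 0.05. Product terms were added 1 at a time. Pairs used exact binomial intervals at 95%, and member ratios added 0.5 to each count; these ratio tests were added after the data were seen. Named pathway genes were up to 4 a list for HMBA and up to 3 for the other effects, by absolute log2 fold change among those called, and with 2 CPM or more on average in the higher arm. Alternatives were RLE scaling, unscaled totals, no filter, a filter by group, DESeq2 1.42.0, limma-voom, 8 or 16 libraries, the replicate block and leaving out each library. The filter on the additive design replaced that by group after member values had been seen, and the filter by group, which tested 15573 genes, changed no member's call. Code was tested on simulated data. Of 7 marker lists, neuronal genes summed to 162 to 223 CPM without HMBA and 485 to 738 with it in the 9, mesenchymal to 34.1 to 63.9 and 62.5 to 103, endothelial to 2.35 to 3.50 and 11.2 to 15.0, hepatocyte to 1.47 to 4.66 and 2.79 to 7.17, colon to 10.3 to 16.6 and 3.74 to 5.53, and epithelial to 4596 to 6031 and 4813 to 8098. Their part in the PDE4 values was not tested.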

Additional observations from a re-analysis of the deposited data

How the results depend on the processing

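HMBA log2 fold changes of the 3 members stayed negative under every alternative. PDE4A was -1.55 on unscaled totals, where the median of all genes moved from 0.02 to -0.24 and 2785 of 9233 called genes were higher, against 4626 of 9392. Leaving out each library gave -1.38 to -1.16 for PDE4A, -5.54 to -5.20 for PDE4B and -2.64 to -2.06 for PDE4D. PDE4B was 21.4% of the family with HMBA by longest transcript, against 16.7%.

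On all 16 libraries without the replicate block, HMBA gave -0.82 (PDE4A), -4.93 (PDE4B) and -1.003 (PDE4D), PDE4A with EPZ-5676 -0.057 and the PDE4B EPZ-5676 by HMBA product 0.22. With the replicate block these were -0.63, -2.42, -1.24, -0.11 and 1.999, PDE4B with EPZ-5676 was 0.16 and its shRNA by HMBA product 0.040. Both fits called 0 genes for the shRNA, EPZ-5676, HMBA and shRNA by HMBA, with 400, 90, 1641 and 48 genes at an unadjusted p under 0.05 without the block and 443, 158, 2874 and 149 with it. The replicate numbers gave correlations of 0.0690 to 0.965 (28 pairs of groups, 24 over 0.1) between the differences of numbers 1 and 2, so not every pair deviated together, and the labels tie no shared culture or day to a number.

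Calls for the shRNA were 353, and 880 by DESeq2, 767 with no filter and 1940 in the 8 libraries numbered 2. For EPZ-5676 they were 30, 231, 248 and 563. For the shRNA by HMBA product they were 2, with 17 by DESeq2 and 36 in the 8, for EPZ-5676 by HMBA 0, with 1 and 5, and for shRNA by EPZ-5676 0, with 3 by DESeq2. PDE4D with EPZ-5676 was 1.85 by DESeq2, 1.86 with no filter and 1.88 in the 8, past the threshold in each, and PDE4B with shNELFE 0.42 in the 8.

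Leaving out each library gave 66 to 1940 calls for the shRNA, 1 to 563 for EPZ-5676, 0 to 36 for shRNA by HMBA and 0 to 5 for EPZ-5676 by HMBA, each highest without shNELFE with both compounds numbered 1. Ranges were -0.066 to 0.16 for PDE4A with EPZ-5676, 0.079 to 0.42 for PDE4B with shNELFE and 1.33 to 2.21 for PDE4D with EPZ-5676. Products ranged from -0.50 to 0.021 (PDE4A) and -0.44 to 1.52 (PDE4D) for shRNA by HMBA, -0.69 to 0.045 (PDE4B) for EPZ-5676 by HMBA, and -0.50 to 0.039 (PDE4A) and -0.33 to 0.61 (PDE4B) for shRNA by EPZ-5676. The cause of these shifts was not tested. Depth limits PDE4D, at 2 to 47 counts, and PDE4C.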
